A study of Mus musculus with 4 samples.

Results

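The 9 genes described here encode the surrogate light chain and its relative (Vpreb1, Vpreb2, Vpreb3, Igll1), the enzymes that cut and extend immunoglobulin gene segments (Rag1, Rag2, Dntt) and 2 B lineage transcription factors (Ebf1, Pax5). They were chosen by symbol, and all 9 are among the 31017 gene symbols of the bone marrow tables. The KO_BM library came from S100a8fl/flVav-Cre+/- mice, in which S100a8 is deleted across the hematopoietic system, a system that includes B lineage cells. The WT_BM library came from S100a8fl/flVav-Cre-/- mice, which keep the floxed alleles without Cre, and no Cre-only library is among the samples. Both held CD45+ cells sorted from the marrow of untreated, tumor-free mice, 3 mice pooled per library, and age and sex are not given in the sources used here. Droplet sequencing (10x Genomics) counted unique molecular identifiers (UMIs, 1 per captured RNA molecule). With 1 library per genotype there is no replicate spread and no test: intervals are 95% exact intervals of counting error, differences between mice cannot be told apart from genotype, and a gene is called higher or lower where KO_BM and WT_BM differ by at least 1.5-fold and the stage holds at least 50 of its UMIs.

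A developing B cell first joins the segments of its heavy chain gene, and the Rag1 and Rag2 proteins form the recombinase that makes the cuts. Terminal deoxynucleotidyl transferase, encoded by Dntt, adds bases at the joints. A finished heavy chain pairs with the surrogate light chain, made of a VpreB protein and lambda 5 (Igll1), to form the pre-B receptor, whose signal starts a burst of division. The surrogate light chain and the recombinase are then shut down, and the recombinase is expressed again in small pre-B cells, which rearrange the light chain. Ebf1 and Pax5 establish and keep B cell identity throughout.

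After filtering, 10383 cells remained in KO_BM and 7541 in WT_BM, with medians of 2773 and 2246 UMIs. S100a8, the deleted gene, had 0.123 CPM (the UMIs of a gene over all UMIs of the same cells, scaled to the usual CPM total) in KO_BM and 68416 CPM in WT_BM, and S100a9, whose protein pairs with it, had 92699 and 57500 CPM. The 2 tables share 26 cell barcodes among kept cells. B lineage cells were clustered without the 9 genes, so that a stage and a gene's level rest on different genes. Stage names were rebuilt from markers, and each name means cells like that stage. They held 76 and 100 pro-B cells (KO_BM and WT_BM), 84 and 88 cycling pro-B, 80 and 296 cycling pre-B, 205 and 693 small pre-B, 53 and 171 immature B, and 260 and 293 mature B cells. Cluster 4, the cycling pro-B cells, scored highest for the cycling pre-B list of division genes (1.205, mean z-score of markers across clusters). It was named for scoring higher on pro-B (0.568) than on small pre-B markers (-0.014), a rule set after seeing the data. Its 10 leading genes held no pro-B marker. Cluster 6, led by Ms4a1 and Tnfrsf13c, held 95 and 306 cells and kept its number because its leading genes mixed immature and mature markers. Lef1, a pro-B marker, had 919 CPM in KO_BM and 1093 CPM in WT_BM pro-B cells, and 51.6 and 84.3 CPM in small pre-B cells. Il2ra, which marks small pre-B cells, had 234 and 291 CPM there. Kit, also on the pro-B marker list, had 20.0 and 15.4 CPM in pro-B cells. Arpp21, from the small pre-B marker list, came first among the leading genes of the pro-B cluster.

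Vpreb1 (chr16:16868403-16870843, minus strand) and Igll1 (chr16:16860671-16863985, minus strand) lie 4418 bases apart, and Vpreb2 (chr16:17980428-17981273, plus strand) lies 1109585 bases further on (GENCODE M21, GRCm38). The longest protein-coding transcripts of Vpreb1 and Vpreb2 were 97.4% identical over 759 aligned bases, with an unbroken identical run of 196 bases. How reads that fit both genes were counted is not given in the sources used here, so the split between these 2 genes is uncertain. Sequence from the 250 bases before the RefSeq start of these 3 genes is shown because the surrogate light chain genes gave 3 of the 4 higher calls within stages described below. The RefSeq starts differ from the GENCODE gene bounds above: the Vpreb1 window lies inside the GENCODE gene, before the start of its shorter transcripts. The last 137 bases of the Vpreb2 window are transcribed in GENCODE and are left out, so 113 are shown. Sequences are from RefSeq (GRCm38.p6), read 5′ to 3′ along the gene's own strand, and capitals mark the E-box letters CAGGTG on either strand.
Vpreb1 (chr16:16869256-16869505, minus strand): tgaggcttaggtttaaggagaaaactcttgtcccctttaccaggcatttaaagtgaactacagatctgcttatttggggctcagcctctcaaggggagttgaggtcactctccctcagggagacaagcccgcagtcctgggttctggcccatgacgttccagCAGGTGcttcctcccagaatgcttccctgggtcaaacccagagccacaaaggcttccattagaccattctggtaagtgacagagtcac
Vpreb2 (chr16:17980315-17980427, plus strand): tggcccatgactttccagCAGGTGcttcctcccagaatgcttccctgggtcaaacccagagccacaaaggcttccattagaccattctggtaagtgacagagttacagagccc
Igll1 (chr16:16863986-16864235, minus strand): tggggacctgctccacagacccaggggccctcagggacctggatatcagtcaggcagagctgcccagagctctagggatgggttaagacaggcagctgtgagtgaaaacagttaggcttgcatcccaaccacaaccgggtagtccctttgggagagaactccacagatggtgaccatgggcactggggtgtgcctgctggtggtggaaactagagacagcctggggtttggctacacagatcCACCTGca
The whole Vpreb1 and Vpreb2 windows share a stretch of 106 aligned bases at 98.1% identity with an unbroken run of 91 bases. The Vpreb1 and Igll1 windows have no identical run longer than 10 bases. CAGGTG was found in 4 of the 10 windows of the 9 genes (Vpreb1, Vpreb2, Igll1 and Rag1; Ebf1 has 2 windows) and in 17.2% of all 32851 windows of that length. The letters CCCNNGGG, in which Ebf1 binding sites are usually written, were found on either strand only in the Igll1 window of these 10, and in 11.8% of all windows.

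Over whole libraries, Vpreb3, Rag1, Rag2, Ebf1 and Pax5 were lower in KO_BM, while Vpreb1, Igll1, Vpreb2 and Dntt stayed within 1.5-fold. Thus 5 of 9 genes were called lower and 0 higher, against 7.77% of all measured genes called lower and 4.35% called higher. Ebf1 had 162 CPM in KO_BM and 496 CPM in WT_BM (ratio 0.326, interval 0.317 to 0.335). Rag1 had 15.1 and 45.5 CPM (ratio 0.331, interval 0.302 to 0.362). Dntt, in contrast, had 43.6 and 43.5 CPM (ratio 1.00, interval 0.936 to 1.08), and Vpreb1 had 59.1 and 72.9 CPM (ratio 0.810, interval 0.766 to 0.856).

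The share of B lineage cells differed in the same direction. They made up 8.32% of KO_BM cells and 26.1% of WT_BM cells (ratio 0.319), and 25.1% and 49.2% of cells other than neutrophils. Shares of the library differed least for cycling pro-B, mature B and pro-B cells and most for the stages in between. The KO_BM over WT_BM ratio of these shares was 0.552 for pro-B, 0.693 for cycling pro-B, 0.196 for cycling pre-B, 0.215 for small pre-B, 0.225 for immature B, 0.225 for cluster 6 and 0.644 for mature B cells. Of B lineage cells, pro-B made up 8.80% in KO_BM and 5.08% in WT_BM, cycling pro-B 9.72% and 4.47%, and small pre-B 23.7% and 35.2%. A share of a sorted pool shows proportions, not cell numbers.

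**Figure D1:**
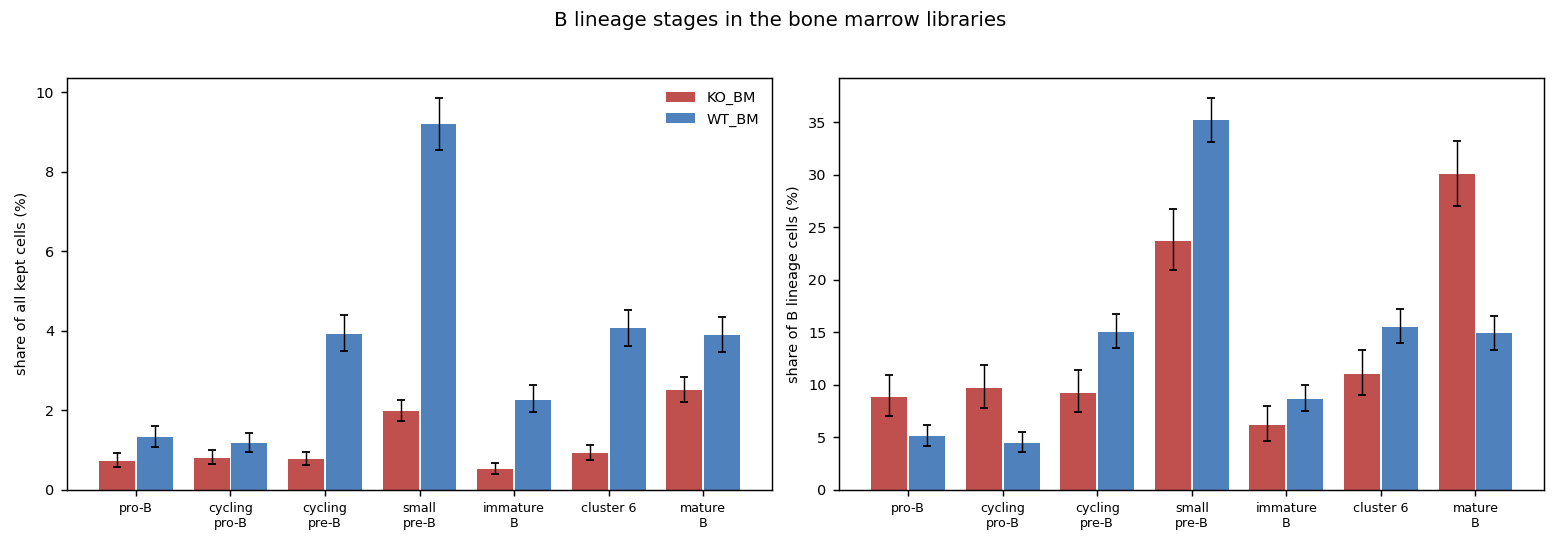
Share of each B lineage stage among all kept cells (left) and among B lineage cells (right), in percent, for KO_BM (red) and WT_BM (blue); bars are single libraries and lines are exact 95% binomial intervals. Small pre-B cells are 1.97% of KO_BM and 9.19% of WT_BM cells, while pro-B cells are 0.732% and 1.33%.

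Within the B lineage as a whole, Vpreb1, Vpreb2, Igll1 and Dntt were higher in KO_BM, 4 of 9 genes against 4.76% of all measured genes, and 0 of 9 were called lower (5.04% of all). Vpreb2 had 126 CPM in KO_BM and 42.4 CPM in WT_BM (ratio 2.96, interval 2.51 to 3.50). Vpreb1 had 823 and 395 CPM (ratio 2.08, interval 1.96 to 2.21), and Dntt had 317 and 138 CPM (ratio 2.30, interval 2.08 to 2.53). The other 5 genes were slightly lower, with ratios of 0.790 for Rag1, 0.7997 for Ebf1, 0.817 for Vpreb3, 0.851 for Pax5 and 0.868 for Rag2. When KO_BM cells were weighted to the stage mix of WT_BM, a calculation chosen after seeing the data, the ratios of these 5 lay between 0.905 (Ebf1) and 1.09 (Rag1). The same weighting gave 1.41 for Vpreb1, 1.32 for Igll1, 1.43 for Dntt and 1.94 for Vpreb2. Of the 9 genes, Vpreb2 alone thus stayed past 1.5-fold at an equal stage mix.

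**Figure D2:**
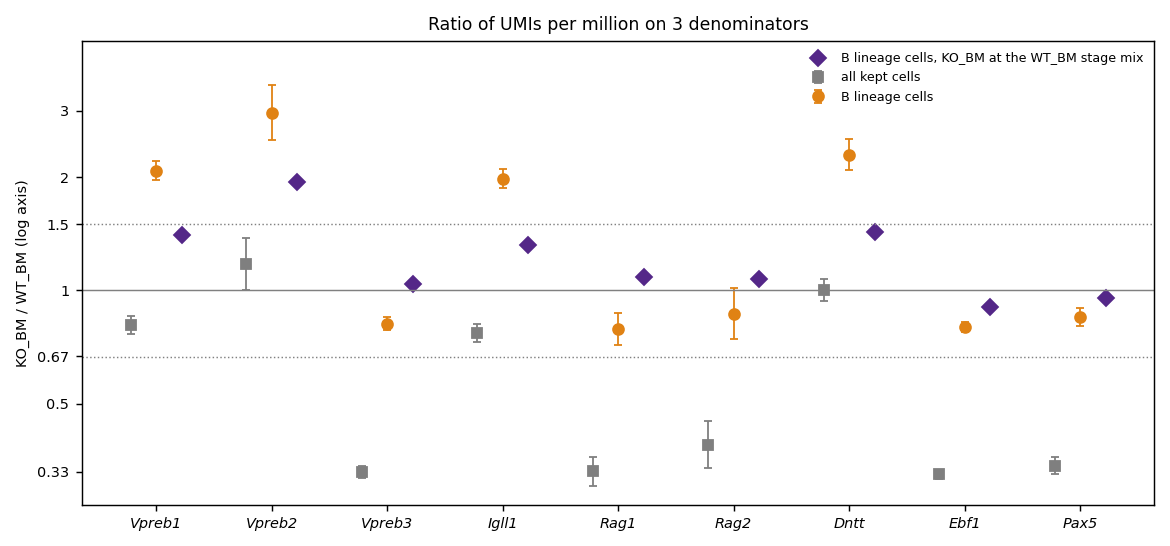
Ratio of CPM, KO_BM over WT_BM (log axis), of each gene over all kept cells (grey squares), over B lineage cells (orange circles) and over B lineage cells with KO_BM weighted to the WT_BM stage mix (purple diamonds); lines are exact 95% counting intervals and dotted lines mark 1.5-fold. Ebf1 lies at 0.326 over all cells, at 0.7997 over B lineage cells and at 0.905 at an equal stage mix.

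The genes of the surrogate light chain group followed 2 patterns over the stages. Vpreb1, Vpreb2 and Igll1 had their highest level in pro-B cells and a far lower one from the cycling pre-B stage on, in both libraries. Igll1 had 3882 CPM in KO_BM and 3765 CPM in WT_BM pro-B cells, 1304 and 1045 CPM in cycling pro-B, 161 and 126 CPM in cycling pre-B, and 234 and 91.5 CPM in small pre-B cells. The counting intervals of the 2 pre-B stages overlapped in each library, and those of all later stages overlapped each other. Vpreb3 (chr10:75943057-75949657, plus strand), whose product binds newly made immunoglobulin chains, was also highest in pro-B cells, at 3447 and 3262 CPM. It stayed high later, with 2840 and 2507 CPM in small pre-B, 2912 and 2565 CPM in immature B and 137 and 143 CPM in mature B cells. The pro-B and immature B intervals of Vpreb3 overlapped in KO_BM but not in WT_BM. CPM compares a gene with all RNA of a cell, and cycling pro-B cells held medians of 12060 (KO_BM) and 9360 (WT_BM) UMIs, against 2491 and 1668 in pro-B cells. A Vpreb1-positive cell accordingly held on average 17.7 and 10.95 Vpreb1 UMIs in cycling pro-B, and 13.8 and 8.94 in pro-B cells, although its CPM was lower in the cycling stage.

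**Figure D3:**
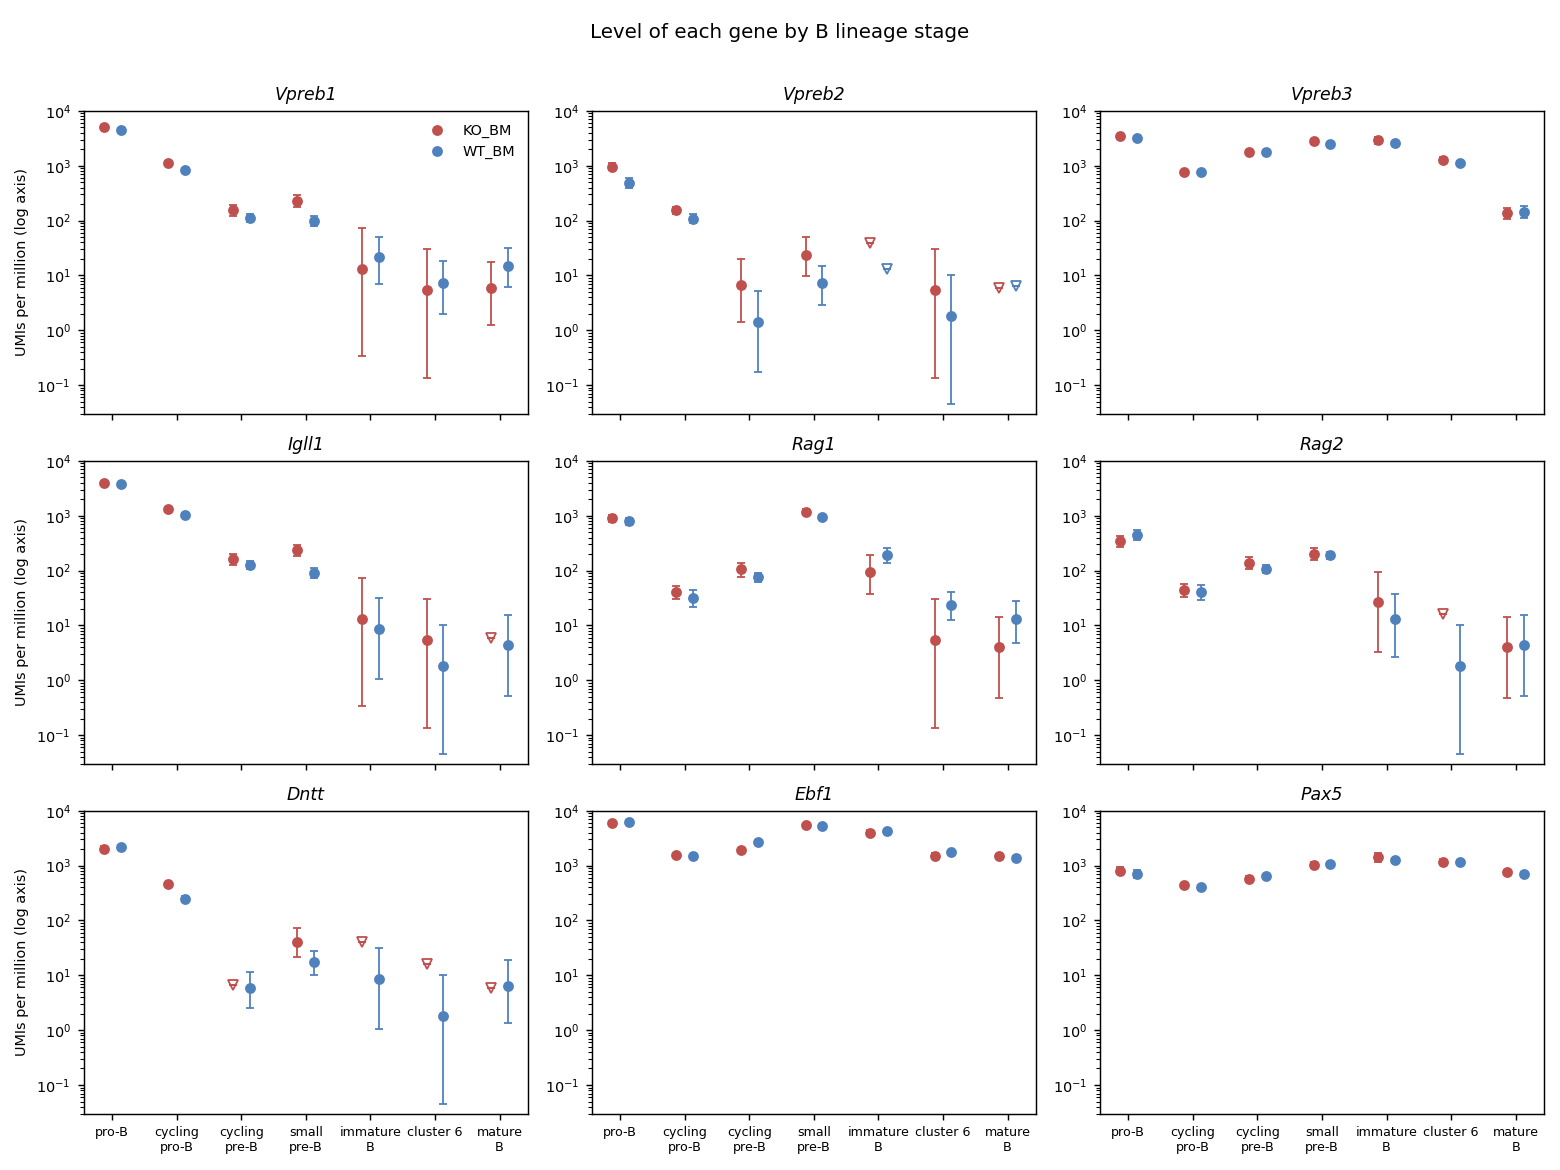
Level of each gene in CPM (log axis) by B lineage stage, in KO_BM (red) and WT_BM (blue), 1 library each; lines are exact 95% Poisson intervals and open triangles mark stages with no UMI, drawn at the level of 3 UMIs. Vpreb1, Vpreb2, Igll1 and Dntt peak in pro-B cells, Rag1 is lower in the 2 cycling stages than in pro-B and small pre-B cells, and Ebf1 and Pax5 are found in every stage.

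Within pro-B cells Vpreb2 was the 1 gene of 9 called higher in KO_BM (5.12% of all measured genes were), and 0 of 9 were called lower (5.58% of all). It had 964 CPM in KO_BM and 487 CPM in WT_BM (193 and 95 UMIs, ratio 1.98, interval 1.54 to 2.56). Its share of Vpreb1 and Vpreb2 UMIs was 15.7% (interval 13.7 to 17.9) in KO_BM and 9.69% (7.91 to 11.7) in WT_BM pro-B cells. That share was 11.95% and 11.3% in cycling pro-B cells, where the intervals overlapped. A Vpreb2 UMI was seen in 86.8% of KO_BM pro-B cells (77.1 to 93.5) and in 53.0% of WT_BM pro-B cells (42.8 to 63.1). With every cell thinned to 1000 UMIs, which left out 3 KO_BM and 12 WT_BM cells, the shares were 61.6% and 37.5%. Neutrophils, which do not make this protein, had a Vpreb2 UMI in 0.0721% and 0.0848% of cells at medians of 2480 and 2236 UMIs. Coarser clustering (resolution 0.5), under which no cycling pro-B stage stood apart, gave a ratio of 1.33.

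Beyond pro-B cells the calls fell on other genes, although Vpreb2 leaned the same way in cycling pro-B cells. Among cycling pro-B cells Vpreb1 had 1144 CPM in KO_BM and 850 CPM in WT_BM (ratio 1.35, interval 1.24 to 1.46) and Vpreb2 had 155 and 108 CPM (ratio 1.43, interval 1.13 to 1.82), both short of 1.5-fold. A Vpreb2 UMI was seen in 79.8% of KO_BM and 48.9% of WT_BM cycling pro-B cells (17.1% and 11.5% after thinning). The median log2 ratio of the 9 genes in that stage was 0.32, against 0.00079 for all genes. In cycling pre-B cells 0 of the 7 genes measured were called (3.35% of all genes were higher and 7.86% lower). Their median log2 ratio was 0.35, against -0.031 for all genes. Igll1, Rag2, Vpreb1 and Rag1 leaned higher, with ratios from 1.28 (Igll1) to 1.40 (Rag1), and only the interval of Vpreb1 lay above 1. Vpreb3 was near 1 (1.015), while Pax5 (0.863) and Ebf1 (0.728) leaned lower. In small pre-B cells, Vpreb1 and Igll1 were called higher in KO_BM, 2 of the 7 genes measured there, against 5.27% of all measured genes. Vpreb1 had 227 CPM in KO_BM and 97.7 CPM in WT_BM (66 and 95 UMIs, ratio 2.33, interval 1.67 to 3.22), and Igll1 had 234 and 91.5 CPM (ratio 2.56, interval 1.84 to 3.55). These UMIs sat in few cells: 18 of 205 KO_BM cells (8.78%, 5.29 to 13.5) and 31 of 693 WT_BM cells (4.47%, 3.06 to 6.29) held Vpreb1, and the 2 intervals overlap. Neutrophils held it in 0.490% of KO_BM and 0.848% of WT_BM cells. The 5 cells with most Vpreb1 UMIs held 54.5% of them in KO_BM and 37.9% in WT_BM, so the true error is larger than the counting interval. Of the Vpreb1-positive cells, 14 of 18 and 18 of 31 also held Igll1.

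Small pre-B cells came from 2 clusters, and most Vpreb1-positive cells were in cluster 7. By mean z-score of markers across clusters, cluster 7 had 0.522 for small pre-B and 0.373 for pro-B markers. Cluster 2 had 0.393 and 0.082. In cluster 7, 16.0% of KO_BM cells (9.63 to 24.4) and 5.51% of WT_BM cells (3.59 to 8.02) held Vpreb1, at 398 and 118 CPM. In cluster 2, 1 of 99 KO_BM cells and 6 of 239 WT_BM cells did, too few to compare the libraries there. Dntt, another pro-B gene, was in 6 of the 18 Vpreb1-positive KO_BM cells and 6 of the 31 in WT_BM, and in 0.535% and 0.906% of the Vpreb1-negative ones. The 12 neutrophil genes summed to 5436 CPM in KO_BM and 4619 CPM in WT_BM small pre-B cells, and to 2303 and 2204 CPM without S100a9, and their part in the difference was not tested. Of 15 stress and dissociation genes, 9 were measured in small pre-B cells, and 2 were called higher in KO_BM (5.27% of all genes were). Of the 9, 0 lay below the median of all genes. Their median log2 ratio was 0.25, against 0.0089 for all genes, and their part in the difference was likewise not tested. The list's median was -0.34 in pro-B, -0.039 in cycling pro-B and 0.033 in cycling pre-B cells. It was 0.21 in immature B cells, 0.27 in cluster 6 and 0.16 in mature B cells. Junb, an immediate early gene of this list, had 503 CPM in KO_BM and 320 CPM in WT_BM (ratio 1.57). Of 20 type I interferon genes, 4 were measured in small pre-B cells. Of these, 3 were called lower in KO_BM and 0 higher (7.57% and 5.27% of all genes), with a median log2 ratio of -0.70. That median was -0.91 in cycling pre-B but -0.075 in cycling pro-B cells, with 4 genes measured in each. The part of these genes in the difference was not tested.

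**Figure D4:**
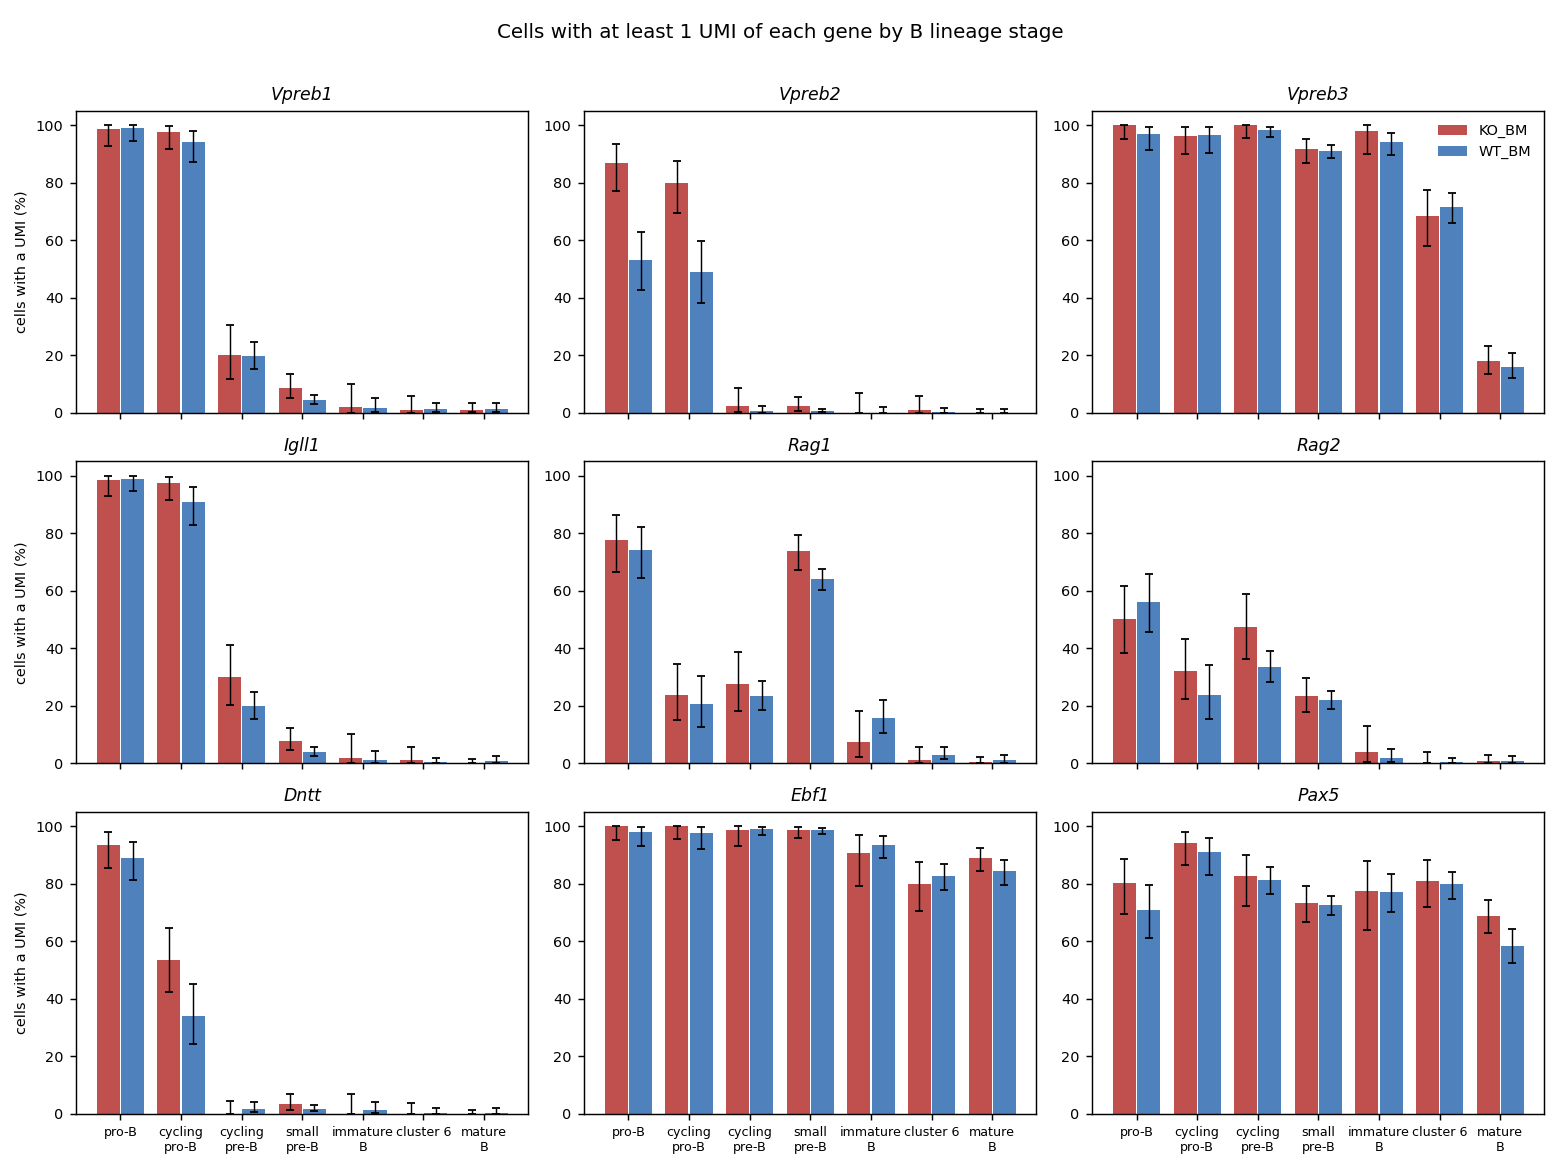
Share of cells with at least 1 UMI of each gene, in percent, by B lineage stage in KO_BM (red) and WT_BM (blue), before thinning; lines are exact 95% binomial intervals. Vpreb2 is seen in 86.8% of KO_BM and 53.0% of WT_BM pro-B cells, and Rag1 in 73.7% and 64.1% of small pre-B cells but in 23.8% and 20.5% of cycling pro-B cells.

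Rag1 and Rag2 lie 5753 bases apart on chromosome 2 (Rag1 chr2:101638282-101649501, minus strand; Rag2 chr2:101624718-101632529, plus strand). Neither was called between the libraries in any of the 4 early stages. Rag1 had 904 CPM in KO_BM and 790 CPM in WT_BM pro-B cells, 40.2 and 31.8 CPM in cycling pro-B, 105.4 and 75.2 CPM in cycling pre-B, and 1167 and 966 CPM in small pre-B cells. High values thus stood on either side of 2 low cycling stages in each library. Unlike Vpreb1, it was also in fewer cells of the cycling pro-B stage, 23.8% in KO_BM and 20.5% in WT_BM, against 77.6% and 74.0% of pro-B cells. The ratio was 1.14 (0.918 to 1.43) in pro-B and 1.21 (1.06 to 1.37) in small pre-B cells. Neutrophils held a Rag1 UMI in 0.130% of KO_BM and 0.509% of WT_BM cells.

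Rag2 had 340 CPM in KO_BM and 446 CPM in WT_BM pro-B cells (ratio 0.761, interval 0.546 to 1.06) and 203 and 188 CPM in small pre-B cells (ratio 1.08, interval 0.791 to 1.45). The make-up of the pair differed between stages. Rag1 supplied 72.7% of Rag1 and Rag2 UMIs in KO_BM and 63.9% in WT_BM pro-B cells, 43.1% and 41.3% in cycling pre-B, and 85.2% and 83.7% in small pre-B cells. The intervals of the 2 libraries overlapped in each of these stages, and those of small pre-B and cycling pre-B cells did not overlap in either library. In immature B cells Rag1 was called lower, 1 of 4 genes measured against 9.86% of all genes (0 of 4 higher, 6.63% of all), on 7 UMIs in 4 KO_BM cells and 44 UMIs in 27 WT_BM cells. The ratio was 0.492 and its interval ran from 0.187 to 1.10, so a difference was not detectable at this depth.

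Dntt (chr19:41029275-41059525, plus strand) was the only member called in cycling pro-B cells, 1 of 9 against 3.63% of all genes called higher, and 0 of 9 were called lower (4.05% of all). It had 467 CPM in KO_BM and 249 CPM in WT_BM (592 and 266 UMIs, ratio 1.88, interval 1.62 to 2.18). A Dntt UMI was seen in 53.6% of KO_BM cells (42.4 to 64.5) and 34.1% of WT_BM cells (24.3 to 44.97), intervals that overlap, and in 36.6% and 24.1% after thinning. Positive cells held 13.2 and 8.87 Dntt UMIs on average, and the top 5 cells held 36.1% and 40.6% of all Dntt UMIs. Finer clustering (resolution 2) gave a ratio of 1.42. In pro-B cells the gene had 2043 CPM in KO_BM and 2170 CPM in WT_BM (ratio 0.942, interval 0.820 to 1.08). In cycling pre-B cells 0 of 80 KO_BM cells held it, which allows up to 3.75% of cells with a UMI by the limit of 3 counts (the exact interval ends at 4.51%), and 5 of 296 WT_BM cells held it. Cycling pro-B cells with Dntt also held Rag1 more often than those without it, 37.8% against 7.69% in KO_BM and 46.7% against 6.90% in WT_BM, and depth was not matched between these cells.

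Ebf1 (chr11:44617317-45008091, plus strand) and Pax5 (chr4:44524757-44710487, minus strand) were measured in all 7 stages and called in none of them. In cluster 6 and in mature B cells, where Vpreb3 was the 1 other gene measured, 0 of 3 genes were called; of all genes, 3.84% were called higher and 8.04% lower in cluster 6, and 4.16% and 4.5% in mature B cells. Ebf1 had 6085 CPM in KO_BM and 6247 CPM in WT_BM pro-B cells (ratio 0.974, interval 0.899 to 1.06), and 5549 and 5359 CPM in small pre-B cells (ratio 1.04, interval 0.979 to 1.10). Its ratio was farthest from 1 in cycling pre-B cells, with 1938 CPM in KO_BM and 2663 CPM in WT_BM (ratio 0.728, interval 0.675 to 0.784), a difference larger than counting error but short of 1.5-fold. Pax5 had its highest level in immature B cells, 1436 and 1246 CPM, with intervals that overlapped those of cluster 6 in both libraries. Its lowest level by CPM was in cycling pro-B cells, 446 and 403 CPM, which held more UMIs per cell than pro-B cells. By count, Pax5 had 565 UMIs in 84 KO_BM and 431 in 88 WT_BM cycling pro-B cells. Pro-B cells had 162 in 76 and 140 in 100, so the low CPM does not mean fewer Pax5 UMIs per cell. The ratios of Pax5 ran from 0.863 in cycling pre-B to 1.15 in immature B cells. In mature B cells, where the recombinase genes and the surrogate light chain pair Vpreb1 and Igll1 had at most 7 UMIs per library, Ebf1 was still in 88.8% and Pax5 in 68.8% of KO_BM cells, against 84.3% and 58.4% of WT_BM cells.

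**Figure D5:**
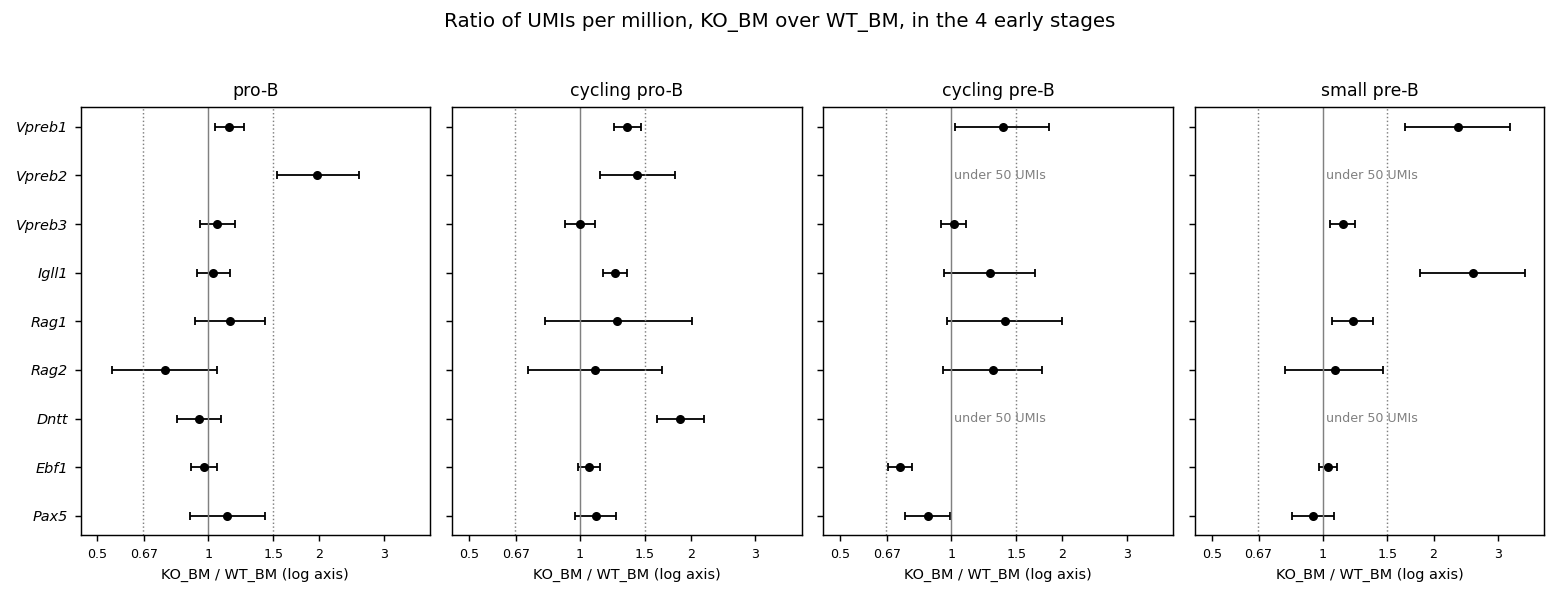
Ratio of CPM, KO_BM over WT_BM (log axis), of the 9 genes in the 4 early stages; points are single-library ratios, lines exact 95% counting intervals, and dotted lines mark 1.5-fold. Vpreb2 in pro-B (1.98), Dntt in cycling pro-B (1.88) and Vpreb1 (2.33) and Igll1 (2.56) in small pre-B cells lie past 1.5-fold, and Ebf1 in cycling pre-B cells lies at 0.728.

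Outside the B lineage Dntt had the highest shares of positive cells among the 9 genes. Plasmacytoid dendritic-like cells had 209 CPM in KO_BM and 156 CPM in WT_BM (ratio 1.34, interval 1.11 to 1.63), with a UMI in 42.5% and 37.9% of cells. Stem and progenitor-like cells had 110 and 120 CPM (ratio 0.919, interval 0.808 to 1.05), with a UMI in 11.5% and 16.5% of cells. Dntt was in 0.533% of KO_BM and 0.396% of WT_BM neutrophils. Vpreb3 was seen in 0.793% of KO_BM and 3.73% of WT_BM neutrophils, and Ebf1 in 0.922% and 2.06%; the source of these UMIs was not tested. In plasmacytoid dendritic-like cells Ebf1 was called higher in KO_BM (32.4 and 16.3 CPM) and Vpreb3 lower (16.2 and 28.7 CPM), and in stem and progenitor-like cells Vpreb3 and Ebf1 were called lower (12.99 and 20.3 CPM, and 24.1 and 38.02 CPM). Those of Ebf1 in both classes, and of Vpreb3 in stem and progenitor-like cells, changed direction under another setting. In the first class 5.93% of all genes were called higher and 4.16% lower, and in the second 5.1% were called lower and 3.61% higher.

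Of 14 other joining genes, 8 were measured in cycling pro-B cells, 1 of them called lower (4.05% of all genes were), and 6 in small pre-B cells, again 1 called lower (7.57% of all genes). Hmgb1 and Hmgb2, which help the recombinase bind, had ratios of 0.950 and 0.862 in pro-B cells. Of 21 further B lineage transcription factors, 19 were measured in cycling pre-B cells, and 4 were called lower and 0 higher, against 7.86% and 3.35% of all genes there. Bcl11a was among them, with 49.3 CPM in KO_BM and 104.8 CPM in WT_BM (ratio 0.471, interval 0.286 to 0.740). The list's median log2 ratio there was -0.086, against -0.031 for all genes. In pro-B, cycling pro-B, immature B and mature B cells 0 of the list were called lower (5.58%, 4.05%, 9.86% and 4.5% of all genes). In small pre-B cells 1 of 18 was (7.57% of all), and in cluster 6 1 of 17 (8.04%), near those shares. Higher calls were 1 of 18 in cycling pro-B (3.63% of all genes), 1 of 18 in small pre-B (5.27%), 1 of 15 in immature B cells (6.63%) and 1 of 17 in cluster 6 (3.84%). Over the whole B lineage the list's median was -0.28, against -0.035 for all genes. There 2 of 19 were called lower and 0 higher (5.04% and 4.76% of all genes). Of 18 such factors measured in cycling pro-B cells, 1 was called higher and 0 lower, against 3.63% and 4.05% of all genes. It was Foxo1, an activator of Rag genes, with 89.1 CPM in KO_BM and 55.2 CPM in WT_BM (ratio 1.62, interval 1.17 to 2.25). Rag1 and Rag2 were not called in that stage, and a link was not tested. Of 18 pre-B and B cell receptor signal genes, 16 were measured in small pre-B cells and 2 were called lower (7.57% of all genes were). Among 11 measured genes of the interleukin 7 and Kit axis in cycling pro-B cells, 2 were called higher and 0 lower, against 3.63% and 4.05% of all genes. Socs2, a feedback inhibitor of cytokine signals, had 104 and 41.2 CPM (ratio 2.53, interval 1.79 to 3.64), and Ccnd2, a cyclin of early cell cycle, had 745 and 477 CPM (ratio 1.56, interval 1.40 to 1.74). The list's median log2 ratio there was 0.19, and that of all genes was 0.00. It was -0.22 in pro-B cells (1 of 6 called higher, 5.12% of all genes) and -0.34 in immature B cells (2 of 5 called lower, 9.86% of all genes). It was 0.12 in cycling pre-B cells (2 of 8 called higher, 3.35% of all genes). The median was 0.020 in small pre-B cells, 0.062 in cluster 6 and 0.14 in mature B cells. Over the whole B lineage it was 0.23, with 4 of 17 called higher and 0 lower (4.76% and 5.04% of all genes). The list thus leaned higher over the whole B lineage but not in every stage. Of 13 Ebf1 and Pax5 target genes, 12 were measured in cycling pre-B cells, where Ebf1 itself had a ratio of 0.728. Of these, 0 were called in either direction, against 7.86% of all genes lower and 3.35% higher. With 12 genes that lies near the share of all genes, so it does not show whether the targets follow Ebf1.

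Likeness of pattern was measured as Pearson's r of log2(CPM + 1) over 34 points, which are bone marrow classes and stages of both libraries and share libraries and depth. Igll1 was most like Vpreb1 (r = 0.97), and Pou2af1, a B cell coactivator, was most like Pax5 (r = 0.99). Ebf1 was most like Cd79a, a B cell receptor chain (r = 0.98), and Vpreb3 most like Akap12 (r = 0.98). Rag1 was most like Gfra1 (r = 0.93) and Rag2 most like Smtnl2 (r = 0.92). Dntt was most like Arpp21, at a lower r of 0.88, and its r with Pax5 was 0.19.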

How the data were processed

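Per the labels, CD45+ cells from 3 mice per genotype were pooled and loaded on a 10x Genomics instrument. The authors deposited raw UMI counts per gene and barcode. Per the file headers these came from Cell Ranger 3.1.0. Among tools, the submitters' processing notes list Seurat (4.3.0), R (4.2.1) and another Cell Ranger release (6.1.2), with builds mm10 and GRCm38. The deposited tables held 11070 KO_BM and 8126 WT_BM barcodes, 51776813 and 32906493 UMIs, and none under 500 UMIs. Tumor libraries were not used here.

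Barcodes needed 200 or more genes and no more than 10% of UMIs from mitochondria. Scrublet in scanpy 1.11.5 marked doublets at an expected 0.8% per 1000 barcodes, a rate set after its default failed in KO_BM, and 4.33% of KO_BM and 5.31% of WT_BM cells were removed. Cells were clustered (Leiden, 2000 variable genes, 30 components, resolution 1) without the 9 genes, S100a8, S100a9, sex-linked, mitochondrial, ribosomal, hemoglobin and receptor segment genes. Cycling clusters were split into pro-B and pre-B by a marker score gap of 0.25 set after seeing the data. A cluster led by neutrophil genes (43 KO_BM and 13 WT_BM cells, 0.414% and 0.172%) was kept out of the B lineage. Plasma cells (11 and 21) were not compared as a stage, but they were counted in the B lineage as a whole and in its stage mix. UMIs were summed per stage and scaled to CPM. Intervals are exact Poisson, Clopper-Pearson and conditional binomial ones, which count UMIs as independent. The ratio code was tested on simulated data.

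The 9 genes and all lists were chosen with earlier results of these data known. All 9 genes are named. From a list, up to 4 genes with the largest ratios and at least 100 UMIs in a stage could be named, and per gene the 3 most alike among genes with at least 200 UMIs. Alternatives covered scaling, thinning, doublets, stage definition and filters.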

Additional observations from a re-analysis of the deposited data

How the results depend on the processing

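Ratios were recomputed under up to 11 alternatives. The B lineage share ratio stayed between 0.317 and 0.332. The number of gene and stage pairs called higher was 4; it was 8 with thinned cells and 8 with stages taken from WT_BM cells alone, and between 3 and 5 otherwise. The 1 pair called lower, Rag1 in immature B cells, became 0 with doublets kept, with stages from WT_BM cells alone, with the 9 genes among the clustering genes, at resolution 0.5, at resolution 2 and among cells with Cd79a and Cd79b. It gave no ratio under these settings except at resolution 2, where the ratio was 0.818. Vpreb1 and Igll1 in small pre-B cells were past 1.5-fold under all 11, Vpreb2 in pro-B cells under 10 of 11 and Dntt in cycling pro-B cells under 8 of 10. Outside the B lineage, the log2 ratio of Ebf1 changed sign in plasmacytoid dendritic-like cells with doublets kept (-0.092) and in stem and progenitor-like cells with doublets kept (0.55), with stages from WT_BM cells alone (0.75) and with the 9 genes among the clustering genes (0.55), and that of Vpreb3 did so in stem and progenitor-like cells with stages from WT_BM cells alone (0.0085); the cause was not tested. No paired analysis was possible because each genotype is 1 library. Depth limits the late stages, where 3 of the 9 genes had 50 UMIs in cluster 6 and in mature B cells.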
